A study of Homo sapiens with 6 samples.

Results

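The transcription factors of the AP-1 group and their ATF and BATF relatives were examined in HEK293 cells of a study on transfection with an empty plasmid. The 10 genes are FOS, FOSB, FOSL1 and FOSL2 (the FOS family), JUN, JUNB and JUND (the JUN family), and ATF3, BATF2 and BATF3. They were taken by gene symbol in the probe annotation of the array. The rule used no values, but it was set with earlier results of these data known. Each gene had 1 transcript cluster (the set of probes that reads 1 transcribed locus), so they make up 10 of the 33297 clusters measured. None of the 10 differed between the groups past the threshold used for all clusters.

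RNA was hybridised to 6 Affymetrix Gene 1.0 ST arrays, 3 labelled control and 3 labelled treatment. HEK293 is a single cell line of human embryonic kidney origin that carries adenovirus E1 genes, and all arrays came from this line. The labels differ on what each group received. By the source names, control cells were given a transient vector and treatment cells a Neo vector, whereas the design text contrasts untreated cells with cells given the plasmid pCMV9, in a search for mediators of an anti-HIV effect. For that reason they are named control and treatment below. Plasmid dose and harvest time are not stated in the labels, nor is it said whether replicates were separate cultures, so the p-values reflect the array-to-array spread alone, possibly a technical one.

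AP-1 is a dimer of basic leucine zipper (bZIP) proteins. FOS proteins cannot pair with each other and need a JUN partner, whereas JUN proteins also pair among themselves, and the dimers bind the DNA letters TGACTCA or the related cyclic AMP response element (CRE) TGACGTCA. Many of these genes are immediate early genes, which means that they are switched on by growth factors or stress through MAP kinases without new protein synthesis and are switched off again soon afterwards. ATF3 is a stress-induced member that mostly represses transcription, and BATF proteins, which lack a strong activation domain, pair with JUN proteins and cooperate with interferon regulatory factors (IRFs) on composite DNA sites. A dimer of ATF2 and JUN is also a part of the complex that switches on the interferon beta gene.

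The stretches of DNA around the starts of these genes were searched for letters that some of them share, outside the rule that chose them. RefSeq promoters of GRCh38.p14, from 250 bases before to 50 bases after a start, were matched by symbol for 8 of the 10 genes. They have 9 starts because 2 were matched for ATF3, and any other starts of these genes were not searched. FOSL1 and BATF3 had no match. The letters TGACATCA, a variant of the CRE through which ATF2 and JUN proteins drive the JUN gene, were found on either strand in the promoters of 3 of the 8 genes, namely ATF3, JUN and BATF2, and in 2.61% of all 35116 promoters. The following stretches, each of the 140 bases that end just before the start, show that site in capitals. That of ATF3 is chr1:212565267-212565406 on the plus strand, with the site 123 bases before the upstream start of the gene. That of JUN is chr1:58784048-58784187 on the minus strand, with the site at 67 bases. That of BATF2 is chr11:64990278-64990417 on the minus strand, with the site at 132 bases.
ATF3: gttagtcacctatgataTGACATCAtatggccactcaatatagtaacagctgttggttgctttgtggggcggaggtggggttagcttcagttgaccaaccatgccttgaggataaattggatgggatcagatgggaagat
JUN: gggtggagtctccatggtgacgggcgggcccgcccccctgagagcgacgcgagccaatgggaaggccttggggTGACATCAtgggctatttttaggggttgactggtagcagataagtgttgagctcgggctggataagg
BATF2: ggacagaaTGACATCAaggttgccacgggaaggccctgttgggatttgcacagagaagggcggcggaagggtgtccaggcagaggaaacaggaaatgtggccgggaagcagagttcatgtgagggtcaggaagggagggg

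The shorter core TGACG, which the full CRE also contains, was found on either strand in 6 of the 8 genes (FOS, FOSB, FOSL2, JUN, JUNB and JUND) and in 24.6% of all promoters. FOS and FOSB, on different chromosomes, share an arrangement in which TGACG stands shortly before the TATA box TATAAA. The stretches below, chr14:75278748-75278807 for FOS and chr19:45467916-45467975 for FOSB, both on the plus strand, show the core and the TATA box in capitals. TGACG begins 64 bases before the start in FOS and 60 bases before it in FOSB, and TATAAA begins 33 and 30 bases before it.
FOS: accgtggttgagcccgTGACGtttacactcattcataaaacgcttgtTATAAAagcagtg
FOSB: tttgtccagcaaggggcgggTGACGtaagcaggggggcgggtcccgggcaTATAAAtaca

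Of the other letters searched on both strands, TATAAA was found in 4 of the 8 genes (11.5% of all promoters), TGACGTCA only in JUND (1.85%) and TGACTCA only in FOSL2 (4.95%), where it lies 5 bases past the start. In FOS, FOSB and JUNB TATAAA begins 30 to 33 bases before the start. In ATF3 it begins 230 bases before the downstream start, far from the place it takes in those genes. The core of interferon response elements, written as GAAA, any 2 bases and GAAA (3.57%), and the CArG box that binds serum response factor (1.29%) were found in 0 of the 8. These shares count promoters, whereas the counts of genes take a gene with any start that matches, and the downstream start of ATF3 held neither TGACATCA nor TGACG. A match of letters is a description of these windows and does not show binding. The absence of the CArG box from these windows does not show that the genes lack one. DNA further before the starts was not searched for it. Nor does the absence of the interferon response core show that sites for IRFs are absent, because only a gap of 2 bases was searched. The interferon beta stretch printed further below, from a promoter that IRFs bind, lacks that core and holds gaaaactgaaa, with a wider gap. The BATF2 stretch above holds gaaacaggaaa, with the same wider gap.

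Signal over background was set by 381 clusters of olfactory receptor genes, which are not expected to be active in a kidney-derived line. The 95th percentile of their mean intensity was 50.7 in control and 63.4 in treatment arrays. In both groups 8 of the 10 genes lay above that level, and FOSB and JUNB did not, so their values cannot be told from background. FOS exceeded it by little in control arrays. All 8 measured markers of HEK293 cells exceeded it in both groups, as did 3 of 6 fibroblast markers and 2 of 7 genes listed for leukocytes, CD68 and CD14. That list and its sum also include HBB, a globin gene of red blood cells (means 13.0 and 16.5). The summed intensity of the leukocyte markers was 372 to 413 in control and 525 to 710 in treatment arrays, and CD68 was the member that rose (1.37 ± 0.246, adjusted p = 0.0242). CD68 passed in 9 of 16 alternatives and missed the threshold on each other scale and without control replicate 1 or 3 or treatment replicate 2 or 3 (adjusted p up to 0.443). The summed HEK293 markers lay at 7374 to 7729 in control and 6623 to 7054 in treatment arrays, also without overlap. Of the 8, 0 passed and 1, PAX2, was higher at an unadjusted p under 0.05 (limma), against the direction of the sum. Its means were 56.0 in control and 105.5 in treatment, with a change of 0.76 ± 0.203 (adjusted p = 0.328). The general leukocyte antigen PTPRC lay in the background range (means 23.4 and 17.1). The part of these marker levels in the results was not tested. The olfactory receptor clusters had a median log2 change of 0.12 in treatment, against 0.01 over all clusters. Median intensity per array lay between 77.2 and 84.2, and treatment replicate 3 had the lowest mean correlation with the other 5 arrays.

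**Figure D1:**
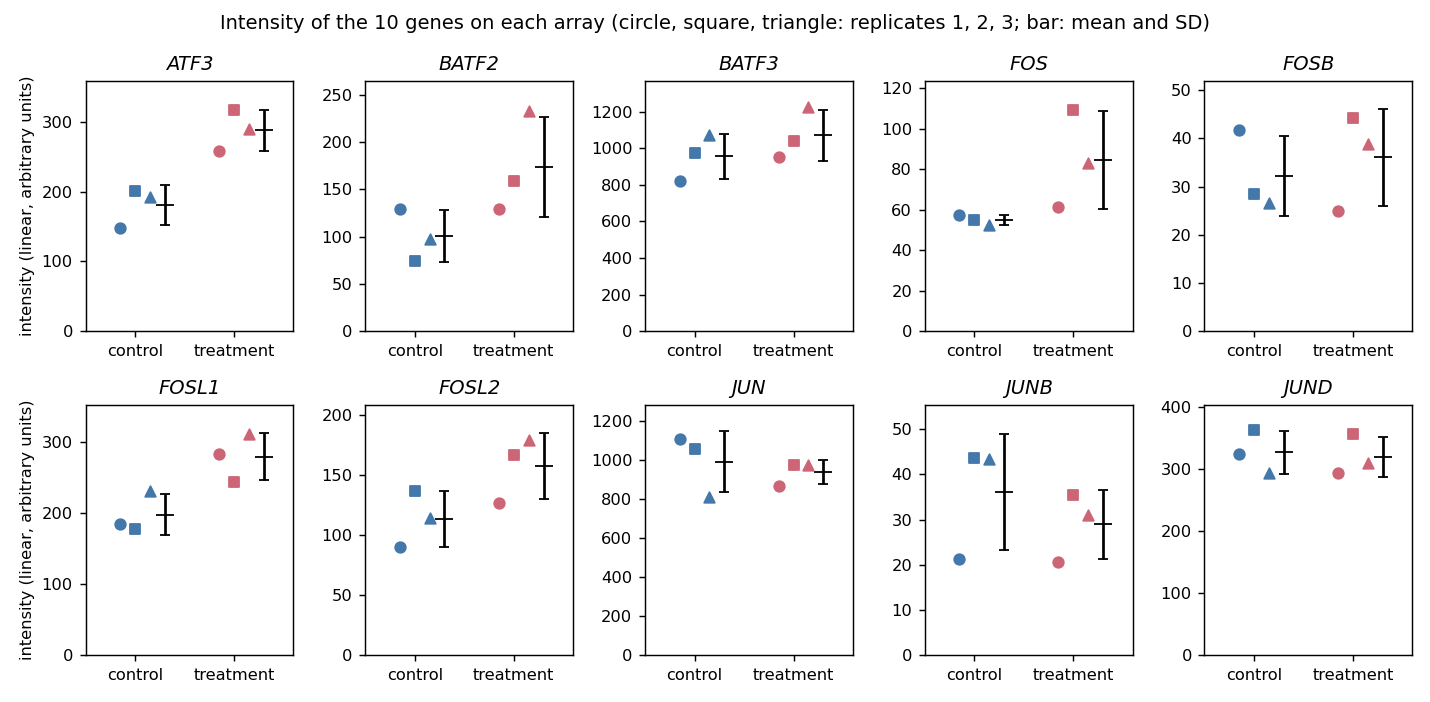
Linear intensity (arbitrary units) of each of the 10 genes on the 3 control (blue) and 3 treatment (red) arrays, with circle, square and triangle for replicates 1, 2 and 3 and a bar for the mean and SD of each group. ATF3, FOS and FOSL1 are the genes whose treatment arrays all lie above all control arrays. The vertical axes differ between genes and start at 0.

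ATF3 was the gene with the lowest p. Its intensity was 148, 202 and 193 in control replicates 1, 2 and 3 and 258, 317 and 290.1 in treatment replicates 1, 2 and 3. Every treatment array was thus above every control array, and the lowest treatment value exceeded the highest control value by more than either group's SD. The means were 181 ± 28.7 and 288 ± 29.3 (SD, n = 3 each), and the log2 change was 0.63 ± 0.205 (SE), with a 95% interval from 0.19 to 1.08, where a log2 change is the difference of log2(intensity + 16), treatment minus control. The unadjusted p was 0.00828 (limma), rank 505 among all clusters, and the adjusted p was 0.546, so the difference did not pass. Without control replicate 1 the change was 0.51, and without control replicate 2 it was 0.71, the lowest and highest values over 16 alternatives, and the unadjusted p stayed under 0.05 in all 16.

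BATF2 had the largest change of the 10 but varied more between arrays. It gave 129.4, 74.3 and 97.9 in control and 129.2, 159 and 232 in treatment arrays. Control replicate 1 and treatment replicate 1 were nearly equal, so the groups overlapped by that narrow margin, and treatment replicate 3 was the highest. The log2 change was 0.69 ± 0.25 (SE), with a 95% interval from 0.15 to 1.23 (limma, unadjusted p = 0.0155, adjusted p = 0.614). Leaving out treatment replicate 3 lowered it to 0.48, and leaving out treatment replicate 1 raised it to 0.86. In 13 of 16 alternatives its unadjusted p was under 0.05, and the highest was 0.0855. BATF3, which in immune cells is required by a class of dendritic cells, gave 822, 973 and 1069.6 in control and 949, 1039 and 1223 in treatment arrays. Those ranges overlapped, and the change of 0.16 ± 0.205 (SE) had an interval from -0.28 to 0.60 (adjusted p = 0.881).

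The 4 FOS family genes all had changes above 0, and the 3 JUN family genes all had changes below 0. With the ATF and BATF genes, 7 of the 10 lay above 0, as did 51.8% of all clusters and 67.5% of the olfactory receptor clusters. That pattern rests on small values and includes FOSB and JUNB, which cannot be told from background. In addition, FOSB turned below 0 with quantile normalization or without treatment replicate 2, JUN turned above 0 without control replicate 1, and JUND turned above 0 with quantile normalization, without control replicate 2 or without treatment replicate 1. The difference between the families was not tested.

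FOS, the prototype immediate early gene, gave 57.3, 54.8 and 52.5 in control arrays and 61.2, 109 and 83.1 in treatment arrays. The control values were close together, and treatment replicate 2 was the highest, with treatment replicate 1 barely above the controls. The log2 change was 0.48 ± 0.219 (SE; limma, unadjusted p = 0.047, adjusted p = 0.681), and it was 0.30 without treatment replicate 2 and 0.65 without treatment replicate 1. The unadjusted p was under 0.05 in 3 of 15 alternatives and reached 0.245. FOSL1 (FRA1), a FOS relative that accumulates later after a stimulus, gave 184, 177 and 230.4 in control and 283, 244 and 311 in treatment arrays. All treatment values were above all control values, although treatment replicate 2 exceeded control replicate 3 by little. The change was 0.47 ± 0.204 (SE), with an interval from 0.03 to 0.91 (unadjusted p = 0.0372, adjusted p = 0.68). Its unadjusted p was under 0.05 in 8 of 16 alternatives and reached 0.127.

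FOSL2 (FRA2), the other late FOS relative, gave 90.1, 137 and 114 in control and 127, 167 and 179 in treatment arrays. Control replicate 2 was above treatment replicate 1, so the groups overlapped, and the change was 0.43 ± 0.219 (SE) with an interval from -0.04 to 0.90 (adjusted p = 0.702). FOSB gave 41.6, 28.4 and 26.6 in control and 24.9, 44.3 and 38.9 in treatment arrays, with the lowest value of all in treatment. All of these lie under the olfactory receptor level of their group. Its change was 0.10 ± 0.222 (SE; adjusted p = 0.943).

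JUN, whose product is the main partner of FOS proteins, lay far above background on every array. It gave 1106, 1056 and 811 in control arrays and 864, 973 and 973 in treatment arrays, and the treatment values lay within the range of the controls. The log2 change was -0.07 ± 0.205 (SE), with a 95% interval from -0.51 to 0.37 (limma, adjusted p = 0.962), which leaves room for at most a 1.29-fold higher or a 0.702-fold level on that scale. JUND, the JUN gene that is active in resting cells, gave 324, 363 and 294 in control and 293, 356 and 309.8 in treatment arrays, a change of -0.03 ± 0.198 (SE) with an interval from -0.46 to 0.40. JUNB, which can oppose JUN, gave 21.2, 43.6 and 43.5 in control and 20.6, 35.4 and 30.9 in treatment arrays, all within the background range. Replicate 1 was the low array in both groups. Its change was -0.19 ± 0.239 (SE), with an interval from -0.71 to 0.32.

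**Figure D2:**
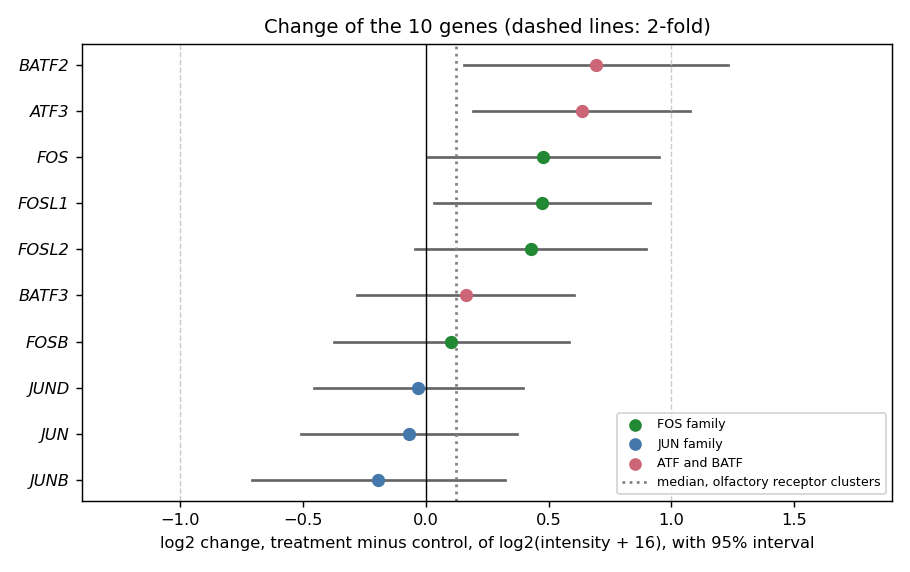
Log2 change of each gene (points, coloured by family) with its 95% interval (lines), on the scale of log2(intensity + 16), treatment minus control. The 2 ATF and BATF genes at the top and FOS and FOSL1 have intervals above 0, and the intervals of 8 of the 10 genes end below a 2-fold increase (right dashed line).

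Over the 10 genes, 0 passed limma at an adjusted p under 0.05, where 0.372% of all clusters did in either direction and 0.357% as increases. At an unadjusted p under 0.05 stood 4 of the 10 (ATF3, BATF2, FOSL1 and FOS), all higher in treatment, against 5.01% of all clusters higher and 7.3% in either direction. Their count was 2 without control replicate 1, 2 without control replicate 2, 1 without treatment replicate 3, and 2 with the replicate number as a block. The groups did not overlap, with treatment above, in 3 of the 10 (ATF3, FOSL1 and FOS) and in 7.47% of all clusters, or 14.6% counting both directions. The median change of the 10 was 0.29, against 0.01 over all clusters. Because the 10 genes were chosen with earlier results of these data known, these shares and medians are a description and not an independent test. The count at an unadjusted p was also added after seeing the data. The upper bound of the 95% interval lay under a 2-fold increase for 8 genes, all but ATF3 and BATF2, and the lower bound of all 10 lay above a 2-fold decrease, on a scale that understates changes of dim clusters.

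The arrays of the treatment group did not behave alike. Relative to the control mean of each gene, 6 of the 10 genes were higher in treatment replicate 1, 9 in treatment replicate 2 and 7 in treatment replicate 3. The median deviation of the 10 was 0.06 in replicate 1, 0.32 in replicate 2 and 0.42 in replicate 3 on the log2 scale. In treatment replicate 1 it was close to the median of all clusters on that array, 0.06, and in the other 2 arrays all clusters had medians of 0.01 and -0.05. Treatment replicate 3, the array least like the others, thus held the highest values of BATF2, BATF3, FOSL1 and FOSL2, whereas ATF3, FOS and FOSB were highest in treatment replicate 2. The part of that array's other differences in these values was not tested.

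The genes whose 6 array values were most like those of ATF3 were found by the root mean square difference of their deviations from each gene's own mean on the log2 scale, out of 11530 genes with a mean above the median of all clusters. The closest were TAPBP, the MHC class I loading factor tapasin (0.051), the metallothionein pseudogene MT1JP (0.071), the cytidine deaminase APOBEC3F (0.085) and TCEAL2 (0.089). TAPBP gave 461, 610 and 585 in control and 751, 925 and 939 in treatment arrays. All 4 genes had treatment values above all control values, with changes from 0.54 for TCEAL2 to 0.73 for APOBEC3F, and like ATF3 none of the 4 passed (limma, lowest adjusted p = 0.444). For BATF2 the closest were SUSD2 (0.121), the ADP-ribosyltransferase PARP10 (0.122), LTBP2 (0.127) and UNC93B1, a chaperone of endosomal Toll-like receptors (0.133), each highest in treatment replicate 3. These are likenesses over 6 arrays only. The genes were picked for values like those of ATF3 or BATF2, treatment arrays included. Their similar changes and highest arrays thus follow from the choice and are not a separate result.

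The wider pathway was followed in 8 lists with 157 measured genes outside the 10. Of these, 8 passed, all higher in treatment. They were MMP13, IRF1, IRF7, IFNB1, IFNL1, IFNL2, CXCL10 and CCL5. They make up 5.1% of the 157, where 0.357% of all clusters passed as increases. The IRF and interferon beta lists hold 7 of the 8, and they were chosen with earlier results of these data known. The median change over the 157 was 0.04. On the plain log2 scale 1 of the 157 passed, at offset 1 the count was 2, and at offset 50 it was 5. Leaving out control replicate 1 also gave 5.

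Among the partners, 31 other bZIP genes were measured and 0 passed, with 1 higher at an unadjusted p under 0.05 (limma) and a median of 0.04. MAF, a large bZIP factor, had the lowest p (0.53 ± 0.217, SE; adjusted p = 0.67), followed by CEBPD (0.44 ± 0.213) and the repressor BACH2 (-0.38 ± 0.211). The mean of MAF was 38.7 in control, under the olfactory receptor level, and 63.6 in treatment, barely above the level of 63.4. ATF2, the partner of JUN at the interferon beta gene, gave 575, 641 and 862 in control and 893, 791 and 543 in treatment arrays, with overlapping ranges and a change of 0.09 ± 0.239 (SE). BATF, the third BATF gene, had a change of -0.02 ± 0.22. ATF2 and BATF are named for their roles, outside the rule of lowest p. So is NFE2, which has the largest change of the list, 1.48 ± 0.863, but it rests on control replicate 1 at 8.02, since the other 5 arrays lay between 541 and 623.

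Upstream of AP-1, the MAP kinase cascade and the factors SRF and ELK that it activates had 31 measured genes. Of these 0 passed, 1 was lower at an unadjusted p under 0.05 (limma), and the median was -0.06. The kinase RPS6KA1 (RSK1), which phosphorylates FOS, gave 167, 214 and 168 in control and 138, 109 and 137 in treatment arrays. The treatment values were all below the controls, with a change of -0.47 ± 0.204 (SE; adjusted p = 0.68). MEF2D (-0.40 ± 0.2) and MAP2K5 (-0.46 ± 0.254) came next. Of 17 MAP kinase phosphatases and feedback inhibitors, which rise when the cascade has been active, 0 passed and 0 had an unadjusted p under 0.05. DUSP6, a phosphatase of ERK kinases, had the lowest p with 0.34 ± 0.259 (SE), then SPRY4 (0.28 ± 0.22) and DUSP8 (-0.25 ± 0.205), and the median of the list was -0.05.

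Among 23 other immediate early genes 0 passed, 3 were higher at an unadjusted p under 0.05 (limma) and the median was 0.20. NR4A1, a nuclear receptor, gave 46.2, 74.3 and 68.7 in control and 78.7, 109 and 114 in treatment arrays, a change of 0.57 ± 0.223 (SE; adjusted p = 0.662). EGR1, a zinc finger factor induced together with FOS, had a change of 0.49 ± 0.205 (adjusted p = 0.674), and ARC of 0.47 ± 0.208 (adjusted p = 0.68). In each of these 3 genes every treatment array was above every control array. Of all clusters, 5.01% were higher at that unadjusted p and 7.47% had treatment arrays above all controls.

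ATF3 is itself a target of ATF4 in the response to amino acid shortage and unfolded proteins. Of 17 genes of that response, 0 passed, with 1 higher and 1 lower at an unadjusted p under 0.05 (limma) and a median of 0.11. VLDLR was lower (-0.53 ± 0.208, SE; adjusted p = 0.663), and CHAC1, which degrades glutathione, gave 85.0, 70.0 and 53.8 in control and 88.7, 99.5 and 135 in treatment arrays, a change of 0.53 ± 0.223 (adjusted p = 0.677). SLC7A11, a cystine transporter, had a change of 0.43 ± 0.207. ATF4, named for its role, had a change of 0.02 ± 0.211, and ATF4 is regulated mostly by translation, which arrays do not read.

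Of 24 AP-1 target genes MMP13 alone rose, and 23 did not pass. MMP13, a collagenase with a well-known AP-1 site in its promoter, gave 44.3, 54.8 and 51.1 in control and 168, 275 and 180.4 in treatment arrays. The control mean of 50.04 was not above the olfactory receptor level of 50.7. No array of 1 group overlapped the other, and the change was 1.73 ± 0.222 (SE), with an adjusted p of 0.00131 by limma. At an unadjusted p under 0.05 stood 5 of the 24, all higher, among them the chemokine CXCL8 (0.78 ± 0.219, adjusted p = 0.397) and the metallothionein MT2A (0.63 ± 0.216, adjusted p = 0.592). The other two were IL6 and SPP1, named to complete the count. CXCL8 (means 15.2 and 37.3), IL6 (19.3 and 36.8) and SPP1 (14.0 and 30.1) lie in the background range in both groups, where the olfactory receptor clusters themselves had a median change of 0.12. The median of the list was 0.20, and its 24 genes include 14 above the olfactory receptor level in control arrays. The call of MMP13 ended with a plain log2 (adjusted p = 0.11) and with an offset of 1, while its change ran from 1.34 to 2.02 over 16 alternatives.

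The IRFs, with which BATF proteins share DNA sites, had 2 of 8 measured genes that rose, IRF1 and IRF7, and 6 that did not pass. IRF1 gave 77.3, 85.5 and 85.8 in control and 166, 239 and 204 in treatment arrays. The change was 1.13 ± 0.205 (SE; limma, adjusted p = 0.0254). It no longer passed in 8 of 16 alternatives, including the removal of any single array except treatment replicate 1, and the adjusted p reached 0.285. IRF7 rose by 1.67 ± 0.258 (adjusted p = 0.00699), and that call ended without control replicate 1 and under each of the 3 other scales. IRF9 followed with 1.02 ± 0.227 (adjusted p = 0.136). IRF4 and IRF8, the known partners of BATF in immune cells, had changes of -0.15 ± 0.241 and 0.53 ± 0.216 (adjusted p = 0.914 and 0.67). The median over the 8 genes was 0.63, larger than the 0.29 of the AP-1 genes, but the difference was not tested.

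The interferon beta promoter joins the groups described here, because ATF2 and JUN bind it beside IRFs and NF-kB. The stretch shown, chr9:21077993-21078052 on the minus strand of GRCh38.p14, spans 110 to 51 bases before the start, with the letters TGACATAG in capitals, the AP-1-like site bound by ATF2 and JUN. They were found in 0.413% of all promoters and in 0 of the 8 AP-1 gene promoters.
IFNB1: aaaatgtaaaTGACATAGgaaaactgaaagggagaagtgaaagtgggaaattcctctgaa

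The interferon beta list has 14 genes: parts of that complex, IFNB1, and other interferon and chemokine genes that were not tested as its targets. Of the 14, 6 rose (IFNB1, IFNL1, IFNL2, CXCL10, CCL5 and IRF7) and 8 did not pass, with a median of 0.48. IFNB1 gave 0.00294, 6.5 and 2.54 in control and 38.5, 66.2 and 40.9 in treatment arrays, with a change of 1.75 ± 0.228 (SE) and an adjusted p of 0.00148 by limma. Its treatment mean of 48.5 was still under the olfactory receptor level, and its call ended with each of the other scales. CXCL10, with means of 1.97 and 41.5, lay under that level in both groups, and it passed in 7 of 14 alternatives, losing its call on each other scale and without any 1 control array or treatment replicate 2 (adjusted p up to 0.294). In the same arrays the intervals of JUN (-0.51 to 0.37) and ATF2 (-0.43 to 0.60) spanned 0, and arrays of RNA do not read the phosphorylation of these proteins. CCL5, a chemokine that attracts T cells, went from 30.6 ± 4.17 to 268 ± 69.5 (SD, n = 3 each).

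**Figure D3:**
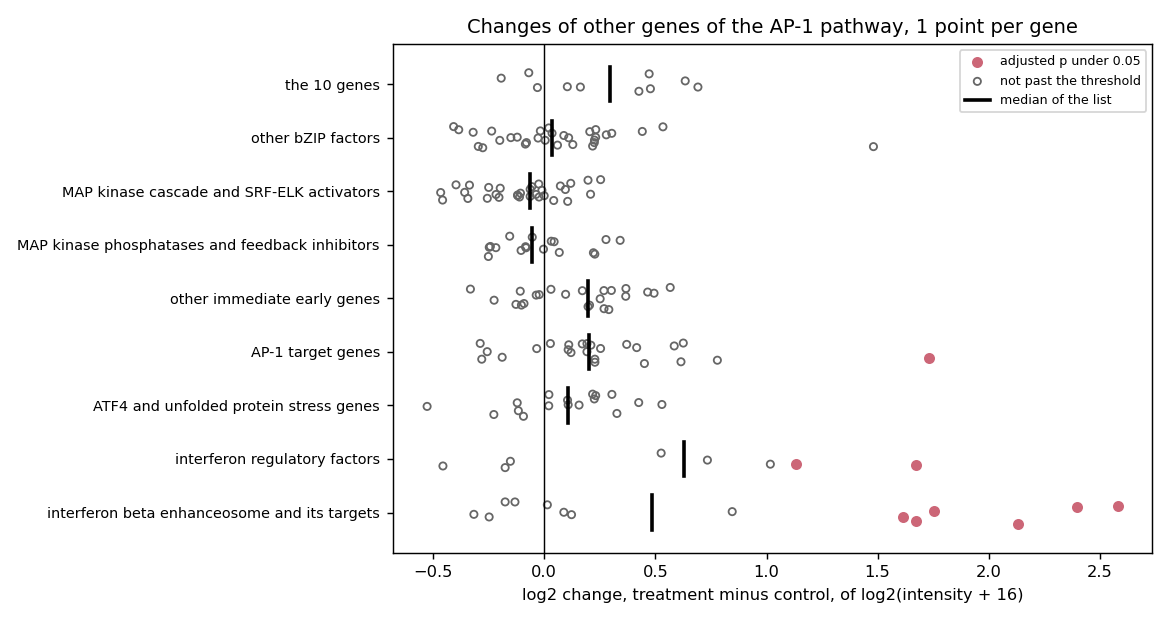
Log2 change, treatment minus control, of the 10 genes and of each gene in the 8 pathway lists, 1 point per gene, filled where the adjusted p was under 0.05, with a vertical bar at each median. Filled points occur among the AP-1 targets (MMP13), the IRFs and the interferon beta list, and the far open point in the bZIP row is NFE2.

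The changes of the 10 genes were recomputed under other scales, normalizations, filters and variance priors and without each array. ATF3 ran from 0.51 to 0.71, BATF2 from 0.48 to 0.86, FOSL1 from 0.39 to 0.58, FOS from 0.30 to 0.65 and FOSL2 from 0.29 to 0.56, so these 5 stayed above 0 in every alternative that was run. JUNB stayed below 0, from -0.42 to -0.05, and BATF3 above 0, from 0.06 to 0.25. The remaining genes, FOSB, JUN and JUND, crossed 0.

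**Figure D4:**
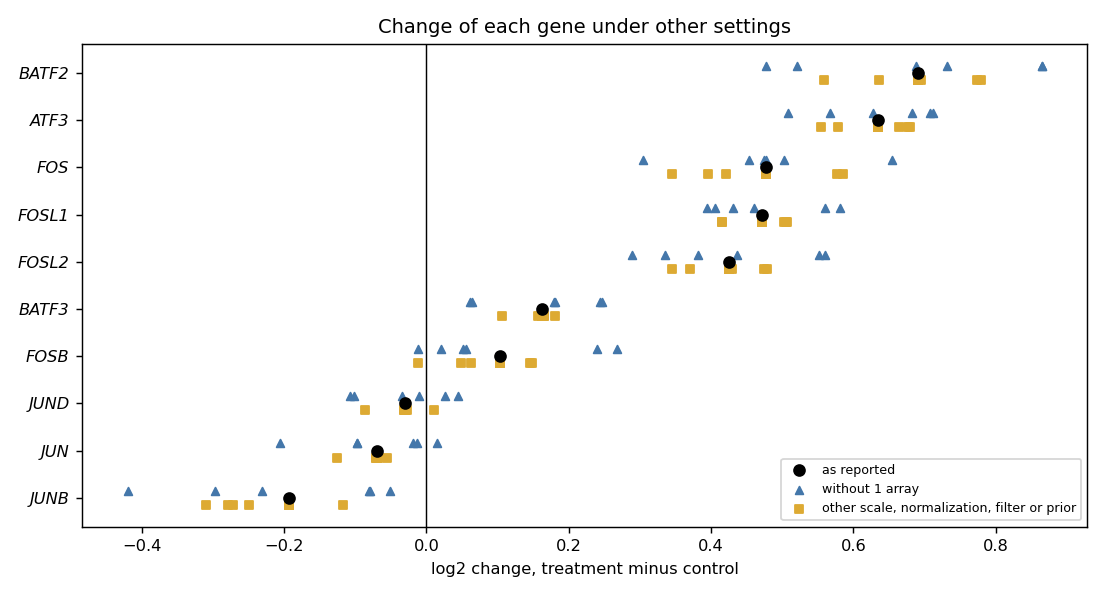
Log2 change, treatment minus control, of each gene as reported (black), without 1 array (blue triangles) and with another scale, normalization, filter or variance prior (yellow squares). FOSB, JUND and JUN are the genes with points on both sides of 0, and the widest spreads come from leaving out 1 array.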

How the data were processed

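RNA of HEK293 cells was measured on 6 Affymetrix Gene 1.0 ST arrays, 3 control and 3 treatment, grouped by sample title. The authors deposited 1 linear intensity per transcript cluster and array, and the submitters' processing notes name Partek; how background, normalization and probe summary were handled is not stated. Of 33297 clusters, 19460 had 1 gene symbol in the platform annotation, 1754 several and 12083 none, and 19429 single symbols matched RefSeq, which changed 0 of them. A gene with several clusters was represented by the brightest.

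Differences of log2(intensity + 16) were tested with limma 3.58.1 (lmFit, eBayes) in R 4.3.3, two-sided, without a block, with p-values adjusted by Benjamini-Hochberg over every cluster and called under 0.05. "Rose" means past it. The script was tested on simulated data. The 10 genes, the lists and the offset were chosen with earlier results of these data known. Named genes are the 10, every passing gene of a list (at most 6) or otherwise its 3 lowest p, and 4 genes of like pattern for each of ATF3 and BATF2; others are said to be so. RefSeq promoters served for sequences. The number of arrays limits the precision. Alternatives were other offsets or none, a replicate block, quantile normalization, median centring, filters on dim clusters, other variance priors, a relaxed threshold and leaving out each array. Taking the mean of a gene's clusters was void, because each of the 10 genes has 1 cluster.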

Additional observations from a re-analysis of the deposited data

How the results depend on the processing

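None of the 10 genes passed limma under any of the 17 alternatives, which says nothing about their stability, since the smallest change among all passing clusters was 1.06 and the largest among the 10 was 0.69. The count of all passing clusters, 124, was 40 on a plain log2 scale, 58 when 1 was added, and 69 to 129 when 1 array was left out, with 69 without control replicate 1 and 82 without treatment replicate 2. The 8 passing pathway genes became 1, 2 and 5 with a plain log2 and offsets of 1 and 50, and 5 to 9 when 1 array was left out, with 5 without control replicate 1. The 4 AP-1 genes at an unadjusted p under 0.05, a count added after seeing the data, became 2 each under median centring, an offset of 1, a plain log2, an intensity trend or the replicate block, and 1 to 4 when 1 array was left out. The sample titles number the replicates but do not say whether same-numbered arrays were paired. Same-numbered deviations correlated at -0.166, 0.084 and -0.356, while control replicate 3 and treatment replicate 1 correlated at 0.363. These values show no closer likeness of same-numbered arrays, but they cannot settle how the cultures were handled. The replicate block gave 105 clusters, 7 pathway genes and 0 of the 10. Signs turned for FOSB (-0.012 with quantile normalization and -0.012 without treatment replicate 2), JUN (0.015 without control replicate 1) and JUND (0.011 with quantile normalization, 0.044 without control replicate 2 and 0.026 without treatment replicate 1); the cause was not tested. Leaving out 1 array moved them from -0.012 to 0.27, from -0.21 to 0.015 and from -0.11 to 0.044. The filter at the median removed FOS, FOSB and JUNB. FOSB, JUNB and IFNB1 lie in the background range, which limits their values.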
